A study of Sus scrofa with 19 samples.

Results

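The genes of glucose uptake, glycolysis and lactate handling described here were 10 listed symbols, SLC2A1, SLC2A4, HK1, HK2, PFKM, PFKFB2, GAPDH, LDHA, LDHB and SLC16A1, which were looked up by symbol in the authors' table and followed by Ensembl ID into the raw counts. Of these, 9 symbols matched, and LDHB matched 2 Ensembl genes, so that 10 Ensembl genes were available among 25879 counted and all 10 were among the 13552 genes that passed the filter on low counts. SLC2A1, the basal glucose transporter GLUT1, matched no gene by symbol and was not analysed here. The abundant LDHB gene is ENSSSCG00000000576 and is written LDHB, and the less abundant one is ENSSSCG00000032557 and is written LDHB-copy.

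In the working heart, glucose enters cardiomyocytes mainly through SLC2A4 (GLUT4), the insulin-responsive transporter, and is trapped by the hexokinases HK1 and HK2. PFKM, the muscle phosphofructokinase, commits the sugar to glycolysis, and PFKFB2, the cardiac isoform of the bifunctional enzyme that makes fructose 2,6-bisphosphate, sets the level of its strongest activator. GAPDH carries the oxidation step of the pathway, LDHA and LDHB encode the muscle-type and heart-type subunits of lactate dehydrogenase, and SLC16A1 (MCT1) moves lactate and pyruvate across the cell membrane.

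Bulk RNA-seq of myocardium from 19 pigs in 5 groups was used, with 1 library per pig. DOX (n = 5) received doxorubicin and MYO (n = 5) its liposomal form Myocet, each at 60 mg/m2 in 3 cycles, and both were sampled at 3 months. RemoLV (n = 3) had a reperfused infarction after a 90 min balloon occlusion of a coronary artery and was sampled in the remote posterior wall, Hyper (n = 3) had a narrowing of the aortic isthmus made by a 9 mm stent, and Control (n = 3) is named a sham-operated group in the sample labels, whereas the study's methods call the sequenced controls untreated. These last groups were sampled at 6 months, and all but RemoLV in the anterior wall. All pigs were described as female large whites, and the stents were placed in juvenile animals. The controls are described as matched in age to the treated pigs, but no age in figures was given in the sources used here, and the labels put their follow-up at 6 months, so that drug and follow-up time cannot be told apart in DOX and MYO.

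The names of the libraries conflict. Each of the 19 expression columns of the authors' table matched exactly 1 count file (Spearman's rho 1, next highest at most 0.992, across genes), but 8 of the 19 carried the name of another group. The table columns named Control were the count files labelled RemoLV, those named RemoLV were the files labelled Control, and 1 DOX and 1 MYO library were exchanged. Groups below follow the labels of the count files, and each comparison was repeated with the table names. DOX and MYO as 1 arm against Hyper (written DOX and MYO vs. Hyper) is the comparison that holds the same 13 libraries under both namings, and it is therefore given first.

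The libraries held 9527710 to 20370209 counts. In the 3 libraries labelled RemoLV, MYL2, the ventricular myosin light chain, had a mean of 58.0 CPM (the count per 1e06 counts of the library after TMM scaling) against 15850.1 CPM in Control, and MYL4, the atrial light chain, had a mean of 7169 CPM against 1.90 CPM in Control. The summed atrial markers (6 of 8 listed genes tested) ranged from 9698 to 13006 CPM in RemoLV and from 188 to 2503 CPM in the other 16 libraries, and the summed ventricular markers (6 of 6) from 25126 to 29262 CPM against 45300 to 75112.5 CPM. These libraries therefore went against the ventricular label, and results are also given without them. Among the other 16 libraries, the summed atrial markers were at 188 to 252 CPM in Control and 332 to 1336 CPM in Hyper. They were at 1204 to 2503 CPM in DOX and 860 to 1340 CPM in MYO, above Control without overlap. All 10 DOX and MYO libraries had counts of the Y-linked gene DDX3Y (1143 to 2831 counts), whereas Hyper and Control had 0 to 2, which goes against the label of female pigs. Whatever moved with these Y-linked counts and the drug cannot be told apart in comparisons of DOX or MYO with the other groups.

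Because HK2, PFKFB2 and SLC2A4 carried the largest differences below that could be tied to 1 RefSeq gene, the sequences around their annotated starts are shown, from 250 bases before to 50 bases after the start in Sscrofa11.1 (RefSeq). Capitals mark matches, on either strand, to ACGTG (the core of the hypoxia response element) or GGGCGG (the GC box). HK2 lies on the minus strand of chromosome 3, with its start region at chr3:68231138-68231437, PFKFB2 on the plus strand at chr9:67681536-67681835, and SLC2A4 on the plus strand at chr12:52628496-52628795.
HK2: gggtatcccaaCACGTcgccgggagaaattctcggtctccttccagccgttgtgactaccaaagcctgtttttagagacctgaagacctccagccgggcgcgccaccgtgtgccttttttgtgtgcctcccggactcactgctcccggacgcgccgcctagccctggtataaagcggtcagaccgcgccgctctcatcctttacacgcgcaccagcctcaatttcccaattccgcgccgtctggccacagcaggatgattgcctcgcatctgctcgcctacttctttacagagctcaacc
PFKFB2: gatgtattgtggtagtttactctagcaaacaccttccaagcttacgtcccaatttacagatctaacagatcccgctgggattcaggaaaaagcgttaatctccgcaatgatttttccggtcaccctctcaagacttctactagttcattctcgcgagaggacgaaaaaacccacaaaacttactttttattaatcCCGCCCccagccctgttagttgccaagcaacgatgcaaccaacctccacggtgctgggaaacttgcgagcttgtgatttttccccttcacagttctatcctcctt
SLC2A4: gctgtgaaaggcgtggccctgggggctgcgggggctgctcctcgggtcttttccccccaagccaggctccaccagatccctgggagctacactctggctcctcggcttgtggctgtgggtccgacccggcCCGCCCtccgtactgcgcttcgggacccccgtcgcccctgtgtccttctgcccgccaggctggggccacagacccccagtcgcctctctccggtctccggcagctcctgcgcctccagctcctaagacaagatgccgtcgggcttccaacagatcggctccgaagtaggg
The HK2 window held 1 ACGTG match 239 bases before the start, which reads CACGT on the strand shown, and no GGGCGG. The PFKFB2 window held 1 GGGCGG match 55 bases before the start, and the SLC2A4 window 1 GGGCGG match 120 bases before it, both reading CCGCCC on the strand shown. Of 19556 start regions of the same 300 bases, 22.3% held ACGTG and 50.6% held GGGCGG, so these matches are common. CACGTG, the E-box, which contains ACGTG on both strands, was found in 7.92% of all start regions and in none of the members' windows. Whether transcription begins at the annotated starts was not tested, so these windows may miss the promoters.

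In DOX and MYO vs. Hyper, 3 genes were higher (HK2, PFKFB2 and LDHA) and 4 were lower (LDHB-copy, GAPDH, HK1 and SLC16A1) at an adjusted p of at most 0.05, while SLC2A4, PFKM and LDHB did not pass. Across all genes tested 15.8% were called higher and 16.9% lower in this comparison (edgeR quasi-likelihood test, Benjamini-Hochberg over 13552 genes), so that 7 of 10 members were called against 32.6% of all genes. The median log2 fold change was -0.26 over the 10 members and 0.03 over all genes. The numbers of 3 higher and 4 lower were the same under the table names and without the RemoLV libraries. When libraries were scaled to their total count alone, 3 were higher and 2 lower, since HK1 and SLC16A1 were no longer called. Of all genes 28.7% were then called higher and 5.61% lower, so the 3 higher of 10 were near the share of all genes. Without Hyper 1 the share of all genes called fell from 32.6% to 18.3%. DESeq2 called 8 members, PFKM in addition. Of 7 fibroblast markers 3 were higher in this comparison, and their sum ranged from 1563 to 3923 CPM in Hyper and from 4600 to 7131 CPM in DOX and MYO. Of 9 markers shared by all cardiomyocytes 0 were higher and 3 lower (median log2 fold change -0.09), with sums of 46066 to 51730 CPM in Hyper and 34089 to 47311 CPM in DOX and MYO. The part of both lists in the result was not tested. Of 2 skeletal muscle markers, both also transcribed in the heart, 1 was lower. Of 4 adipocyte markers 1 was lower (median -0.68), with sums of 134 to 176 CPM in Hyper and 65.5 to 124 CPM in DOX and MYO, and their part in the result was not tested either. Of 6 ventricular markers 1 was higher and 0 lower (median log2 fold change -0.03), and their sums overlapped, from 56073 to 66119 CPM in Hyper and from 45300 to 59661 CPM in DOX and MYO. Of 6 atrial markers 2 were higher and 0 lower (median 0.17). Their sums were 332 to 1336 CPM in Hyper and 860 to 2503 CPM in DOX and MYO, and their part was not tested. In bulk tissue, fewer cells of a type and less RNA per cell cannot be told apart.

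**Figure D1:**
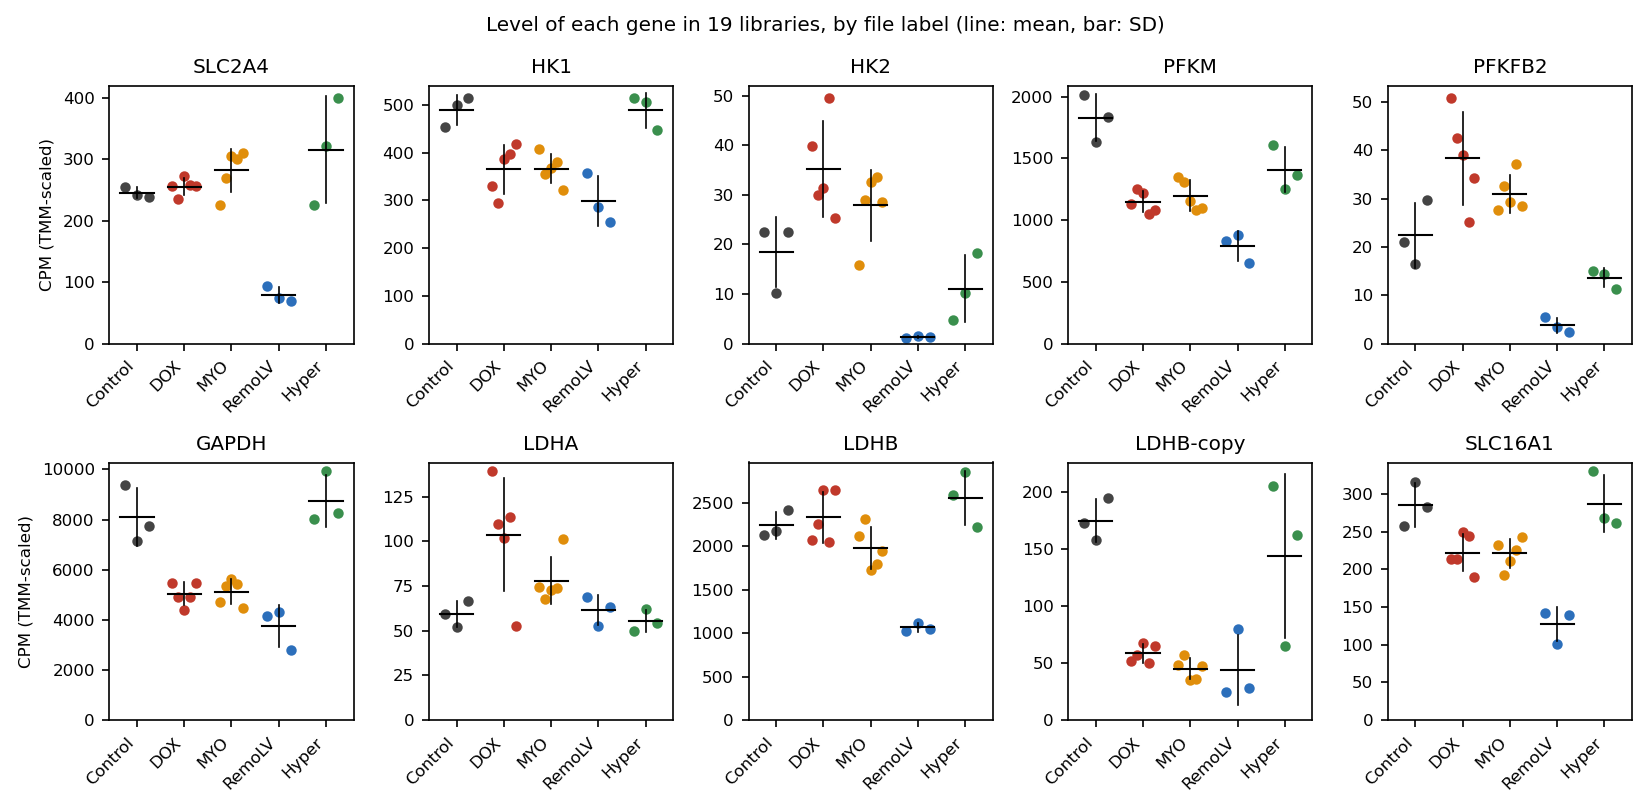
CPM of the 10 genes (vertical axes, linear from 0) in the 19 libraries grouped by file label, each point 1 library, lines the group means and bars the SD. HK2 and PFKFB2 lie lowest in the RemoLV libraries and have their highest group means in DOX and MYO, while GAPDH is lower in all 10 DOX and MYO libraries than in the Control and Hyper libraries.

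SLC2A4 did not separate the drug groups from Hyper. It was at 257, 235, 272, 257 and 256 CPM in DOX, 226, 269, 305, 300.2 and 310 CPM in MYO, 225, 321 and 399 CPM in Hyper, and 255, 242 and 239 CPM in Control. DOX, MYO and Control therefore overlapped with Hyper, which had the widest spread, and the log2 fold change of DOX and MYO vs. Hyper was -0.23 ± 0.13 (SE, adjusted p = 0.182), which passed only without Hyper 1, the lowest Hyper library, at -0.42. In the libraries labelled RemoLV it was at 93.0, 73.9 and 68.6 CPM, under the lowest of the other 16 libraries. The log2 fold change of RemoLV vs. Control was -1.64 ± 0.17 (adjusted p = 9.5e-07).

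The hexokinases moved in opposite directions in DOX and MYO vs. Hyper. HK2, the inducible isoform that is abundant in insulin-sensitive muscle, was at 39.9, 29.9, 31.3, 49.5 and 25.3 CPM in DOX, 15.8, 28.9, 32.7, 33.6 and 28.6 CPM in MYO, and 4.74, 10.1 and 18.2 CPM in Hyper. The MYO library at 15.8 CPM was the sole drug library inside the range of Hyper. The log2 fold change of DOX and MYO vs. Hyper was 1.51 ± 0.34 (adjusted p = 0.00246), which is 2.85-fold. It was at 22.5, 10.3 and 22.5 CPM in Control and at 1.20, 1.47 and 1.25 CPM, or 14 to 26 counts, in RemoLV, so the 3 RemoLV libraries were the lowest of the 19.

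HK1, the constitutive isoform bound to mitochondria, was lower by 0.42 ± 0.11 on the log2 scale in DOX and MYO vs. Hyper (adjusted p = 0.00715). It ranged from 294 to 417 CPM with a median of 374 CPM over the 10 drug libraries and was at 514, 506 and 446 CPM in Hyper, without overlap. Such non-overlap of all libraries in the lower direction was seen in 11% of all genes tested, and in 3 of the 10 members. Control (455, 499 and 514 CPM) overlapped with Hyper, and RemoLV, at 357, 286 and 255 CPM, was below Control, so that in RemoLV both hexokinases were lower. With scaling to the total count alone, HK1 in DOX and MYO vs. Hyper was at -0.15 (adjusted p = 0.374), where the median of all genes was 0.28, and was not called.

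PFKM was lower in both drug groups than in Control and not called against Hyper. It was at 2013, 1635 and 1839 CPM in Control and ranged from 1051 to 1348 CPM over DOX and MYO, whereas Hyper was at 1607, 1252 and 1364 CPM. The drug libraries thus lay below Control without overlap, as for 17.3% of all genes in DOX and 18.7% in MYO and for 5 members in each, and overlapped with Hyper, against which the log2 fold change was -0.26 ± 0.11 (adjusted p = 0.067). RemoLV, at 834, 878 and 651 CPM, was lowest. With scaling to the total count alone PFKM was not called against Control, at -0.24 in DOX (adjusted p = 0.105) and -0.18 in MYO (adjusted p = 0.233), where the median of all genes was 0.45 and 0.44.

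PFKFB2 followed HK2 in its order of groups. It was at 50.9, 42.5, 39.0, 25.1 and 34.3 CPM in DOX, 27.6, 32.7, 29.3, 37.1 and 28.4 CPM in MYO, and 15.1, 14.5 and 11.4 CPM in Hyper. Every drug library was above every Hyper library, which held for 9.98% of all genes in the higher direction, and the log2 fold change was 1.34 ± 0.23 (adjusted p = 0.000255, 2.53-fold). Control was at 21.0, 16.5 and 29.8 CPM, all above Hyper, with Control 3 inside the range of the drug libraries and the other two below it, and RemoLV was at 5.49, 3.44 and 2.41 CPM, the lowest of all.

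GAPDH had the highest level per length of the members with 1 RefSeq gene, with a mean of 1255 CPM per kb of annotated exon over the 19 libraries, followed by PFKM with 349, HK1 with 109, SLC2A4 with 99.3, SLC16A1 with 55.0, LDHA with 27.0, HK2 with 6.88 and PFKFB2 with 2.32. HK1 and SLC2A4 are neighbours in this order that did not differ beyond their spread (SD 22.0 and 34.3, n = 19), and their order changed with the group, with SLC2A4 at 105 and HK1 at 101 CPM per kb in DOX, 115 and 102 in MYO, 129 and 135 in Hyper, 101 and 136 in Control, and 32.2 and 82.9 in RemoLV. RefSeq gives LDHB 2 genes, and its mean was 1456 or 1612 CPM per kb with the exon length of the one or the other, above that of GAPDH but within the spread (SD 409 for GAPDH, 374 and 414 for LDHB). By group, LDHB was above GAPDH with either length in DOX (1649 or 1826 against 1068 CPM per kb) and MYO (1398 or 1547 against 1085), whereas in Hyper (1807 or 2000 against 1851), Control (1584 or 1754 against 1716) and RemoLV (754 or 834 against 797) the order depended on the length used. The exon length of GAPDH merges 3 transcripts and covers 4718 of the 5517 bases of its gene, and that of PFKFB2 merges 7 over 10590 bases. Such long lengths lower a value per kb, and which transcripts were present was not tested. In CPM, GAPDH was above LDHB, at 5037 against 2337 in DOX and 5118 against 1981 in MYO. The order of GAPDH and LDHB thus depends on the lengths chosen. GAPDH was at 5487, 4903, 4407, 4917 and 5470 CPM in DOX, 4718, 5365, 5625, 5410 and 4472 CPM in MYO, 8011, 9923 and 8258 CPM in Hyper, and 9401, 7145 and 7746 CPM in Control. All drug libraries were below all Hyper and Control libraries, with a log2 fold change of -0.78 ± 0.12 against Hyper (adjusted p = 0.000129), although GAPDH is often taken as a reference transcript. RemoLV was at 4151, 4322 and 2808 CPM.

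LDHA was higher in the drug groups, with a wide spread. It was at 139.7, 109.9, 102.2, 113.7 and 52.9 CPM in DOX, 74.3, 67.8, 73.0, 74.0 and 101.4 CPM in MYO, and 50.02, 61.9 and 54.4 CPM in Hyper. The DOX library at 52.9 CPM, which the authors' table names MYO, lay in the range of Hyper, and the other 9 drug libraries lay above it. The log2 fold change of DOX and MYO vs. Hyper was 0.70 ± 0.20 (adjusted p = 0.0119, 1.62-fold), and the call was lost without Hyper 1. Control (59.2, 52.1 and 66.4 CPM) and RemoLV (69.0, 52.4 and 63.4 CPM) overlapped with Hyper, and LDHA was the member that RemoLV vs. Control did not separate (log2 fold change 0.06 ± 0.24, adjusted p = 0.862). With scaling to the total count alone it was at 0.58 (adjusted p = 0.0472) and called, where the median of all genes was 0.52.

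LDHB ranged from 1726 to 2649 CPM over the drug libraries, from 2228 to 2855 CPM in Hyper and from 2128 to 2424 CPM in Control. These groups overlapped, and the log2 fold change of DOX and MYO vs. Hyper was -0.25 ± 0.11 (adjusted p = 0.0835), which passed without MYO 2 or Hyper 3. The RemoLV libraries were at 1029, 1122 and 1053 CPM, below all others.

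SLC16A1 ranged from 190.5 to 250.2 CPM over the drug libraries and was at 330, 268 and 262 CPM in Hyper and 258, 316 and 283 CPM in Control, without overlap. The log2 fold change of DOX and MYO vs. Hyper was -0.37 ± 0.11 (adjusted p = 0.0171), and this call too was lost without Hyper 1, as well as with scaling to the total count alone (-0.11, adjusted p = 0.624). RemoLV, at 143, 101 and 139 CPM, was below all others.

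Compared with Control by file label, DOX had 3 members higher, HK2 (log2 fold change 0.94 ± 0.35), LDHA (0.81 ± 0.22) and PFKFB2 (0.78 ± 0.23), where 21.0% of all genes were called higher, and 5 lower, LDHB-copy (-1.58 ± 0.33), GAPDH (-0.68 ± 0.14), PFKM (-0.67 ± 0.12), HK1 (-0.42 ± 0.12) and SLC16A1 (-0.36 ± 0.13), where 21.1% were called lower. Their adjusted p-values ranged from 0.000299 (PFKM) to 0.0365 (HK2). MYO had no member higher, against 20.7% of all genes, and 5 lower, LDHB-copy (-1.96 ± 0.33), GAPDH (-0.66 ± 0.14), PFKM (-0.61 ± 0.12), HK1 (-0.42 ± 0.12) and SLC16A1 (-0.37 ± 0.13), against 21.7%. In MYO, HK2 was at 0.60 ± 0.34 (adjusted p = 0.166), PFKFB2 at 0.47 ± 0.23 (adjusted p = 0.112) and LDHA at 0.40 ± 0.21 (adjusted p = 0.141). Because both comparisons share the Control libraries, their members are given side by side and are not independent. With scaling to the total count alone the counts in MYO became 4 higher, SLC2A4 (0.63), HK2 (1.09), PFKFB2 (0.94) and LDHA (0.85), and 1 lower. Of all genes 40.6% were called higher and 5.56% lower there. In DOX they became 5 higher and 1 lower, against 41.5% and 5.2% of all genes, so the numbers higher were near the share of all genes. Both the 3 and 0 members called higher and the 5 called lower in each group thus depend on the scaling. GAPDH in MYO was then at -0.22 (adjusted p = 0.158) and not called.

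Markers of cell types differed in the same comparisons. Of 9 markers shared by all cardiomyocytes, 2 were higher and 5 lower in DOX vs. Control (median log2 fold change -0.49) and 1 was higher and 6 lower in MYO vs. Control (median -0.48), with sums of 34089 to 47311 CPM in DOX, 37711 to 42986 CPM in MYO and 41647 to 55019 CPM in Control. Of 7 fibroblast markers, 3 were higher and 0 lower in DOX, and 3 were higher and 1 lower in MYO. Of 4 red blood cell markers, 4 were lower in DOX (median -2.36) and 1 in MYO (median -1.65), and their sum was 8.57 to 113 CPM in DOX, 13.0 to 199 CPM in MYO and 36.7 to 355 CPM in Control. Of 4 adipocyte markers 1 was lower in each (medians -1.06 in DOX and -0.68 in MYO), with sums of 65.5 to 124 CPM in DOX, 73.4 to 121 CPM in MYO and 139 to 152 CPM in Control, without overlap. Of the 2 skeletal muscle markers 1 was lower in each. Of 6 atrial markers 2 were higher and 0 lower in each (medians 0.06 in DOX and -0.12 in MYO). Their sums were 1204 to 2503 CPM in DOX, 860 to 1340 CPM in MYO and 188 to 252 CPM in Control, without overlap with Control. The part of these cells in the members' calls was not tested.

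The call of HK2 in DOX vs. Control rested on single libraries. It was not called without DOX 1, DOX 4, Control 2 or Control 3, with log2 fold changes from 0.64 to 1.11 over all libraries left out, and it was also lost with a replicate block (0.87 ± 0.34, adjusted p = 0.0623). Without Control 2, 1 member instead of 3 was called higher in DOX, while the share of all genes called higher went from 21.0% to 22.8%. Without Control 3 the number called lower fell from 5 to 3 in DOX and in MYO, while the share of all genes called lower fell from 21.1% to 14.4% in DOX and from 21.7% to 14.9% in MYO. PFKFB2 in DOX was not called without Control 1 or Control 2, HK1 in DOX and in MYO not without Control 3, and SLC16A1 in DOX not without DOX 2, DOX 5, Control 2 or Control 3, and in MYO not without MYO 2, Control 2 or Control 3. Conversely, LDHA in MYO was called higher without DOX 5 (outside this comparison, but part of the shared filter, scaling, spread and adjustment) and PFKFB2 in MYO without Control 3. Without the RemoLV libraries, the counts in DOX (3 higher, 5 lower) and MYO (0 and 5) were the same.

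Under the table names, where Control consists of the libraries labelled RemoLV, several directions turned. In DOX and in MYO, 7 members each were called higher and 0 lower, against 15.0% and 14.8% of all genes called higher. HK2 was 4.66 ± 0.47 higher in DOX and 4.50 ± 0.47 in MYO on the log2 scale, and SLC2A4 1.67 ± 0.15 and 1.87 ± 0.15, whereas PFKM changed its sign to 0.61 ± 0.12 and 0.54 ± 0.12. HK2, PFKFB2 and LDHA were higher in DOX vs. Control under both namings, and in MYO all 5 members called lower by file label changed sign.

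**Figure D2:**
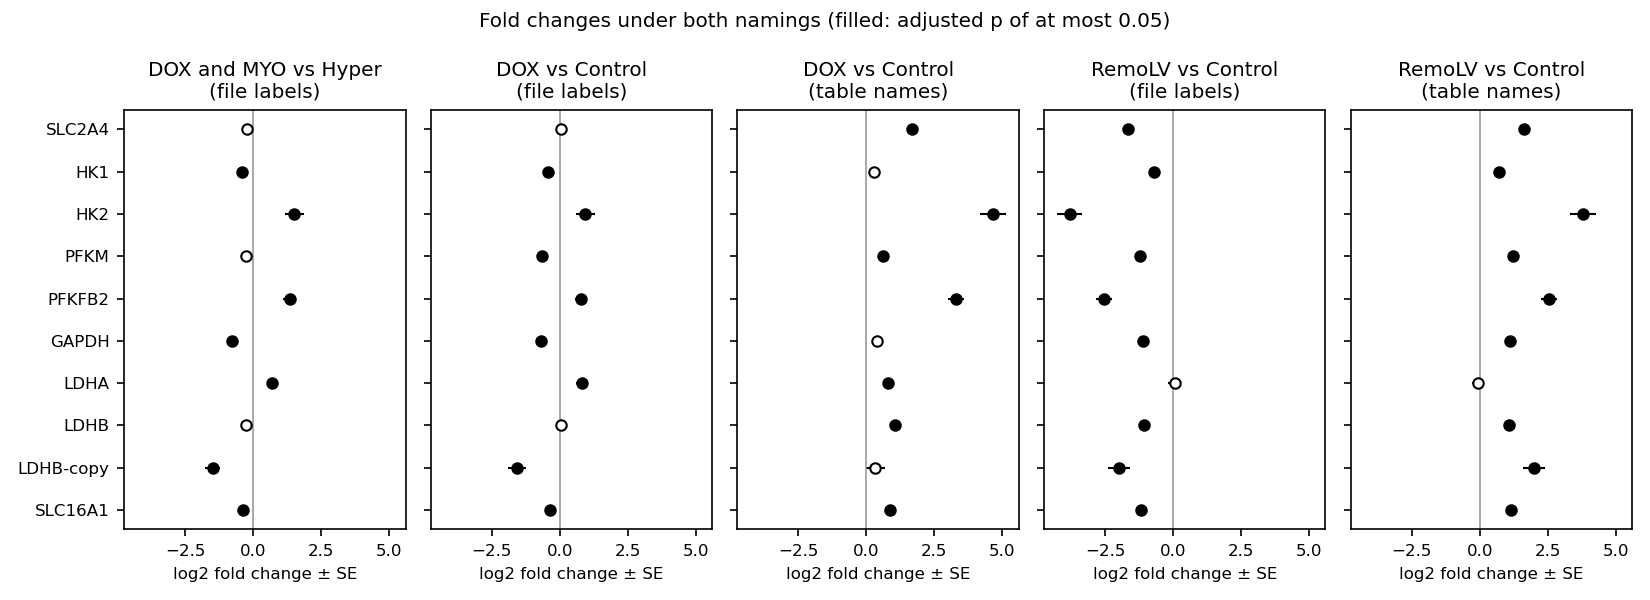
Log2 fold changes (horizontal axes) ± SE of the 10 genes in 3 comparisons, under the file labels and, for those with Control, also under the table names. Filled points passed an adjusted p of 0.05. RemoLV vs. Control is mirrored between the namings, and GAPDH, PFKM, HK1 and SLC16A1 lie left of 0 in DOX vs. Control by file label and right of it by table name.

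RemoLV vs. Control called 9 of 10 members lower and none higher, where 24.0% of all genes were called lower and 23.1% higher. The fold changes on the log2 scale were -3.80 ± 0.47 for HK2, -2.55 ± 0.29 for PFKFB2, -1.99 ± 0.39 for LDHB-copy, -1.64 ± 0.17 for SLC2A4, -1.22 ± 0.14 for PFKM, -1.16 ± 0.14 for SLC16A1, -1.11 ± 0.16 for GAPDH, -1.07 ± 0.14 for LDHB and -0.71 ± 0.14 for HK1. HK2 was thus 13.9-fold and PFKFB2 5.87-fold lower. LDHB-copy was at -2.75 without RemoLV 2, the highest RemoLV library, and the call of HK1 was lost with scaling to the total count alone (-0.21, adjusted p = 0.277), as it was in RemoLV vs. Hyper (-0.36, adjusted p = 0.0813). The 3 libraries did not overlap with Control for these 9 genes, as for 25.7% of all genes in this direction. RemoLV vs. Hyper also called 9 members lower, against 18.6% of all genes lower and 17.0% higher, with HK2 at -3.06 ± 0.47 and SLC2A4 at -2 ± 0.17. Under the table names these libraries are the controls, and the 9 members were called higher in RemoLV (24.0% of all genes) and in Hyper (18.7%) than in Control, while RemoLV vs. Hyper called 0. When a log2 fold change of 2 or more in either direction was demanded as well, HK2 and PFKFB2 stayed called in RemoLV vs. Control (6.35% of all genes), HK2 and SLC2A4 in RemoLV vs. Hyper (4.93%), and no member in DOX vs. Control (2.75%), MYO vs. Control (2.47%) or DOX and MYO vs. Hyper (1.75%). In the same RemoLV libraries 6 of 6 atrial markers were higher and 6 of 6 ventricular markers lower than in Control by file label, and 5 of 7 fibroblast markers were higher. Of 9 markers shared by all cardiomyocytes 1 was higher and 7 were lower (median log2 fold change -1), with sums of 36052 to 37824 CPM in RemoLV, and 3 of 4 red blood cell markers (median -3.14) and 2 of 2 skeletal muscle markers (median -2.01) were lower. Their part in the members' calls was not tested. Chamber identity and the treatment named on these libraries cannot be told apart.

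Hyper vs. Control called none of the members by file label, and none of the 13552 genes (0%). At an unadjusted p under 0.05, 3 members passed, SLC2A4 (log2 fold change 0.36 ± 0.16), PFKM (-0.38 ± 0.14) and PFKFB2 (-0.71 ± 0.26), where 17.8% of all genes did. DESeq2 called 317 genes and no member. The absence of calls rested on single libraries. Without Hyper 1, 5.6% of all genes were called, SLC2A4 among them, and without Control 2, 18.4%, PFKM and PFKFB2 among them. DOX vs. MYO called no member and 0 of 13552 genes (0%), and DESeq2 called 2 genes and no member. At an unadjusted p under 0.05, LDHA (0.41 ± 0.18) and LDHB (0.24 ± 0.11) passed, where 7.08% of all genes did. These misses do not show that free and liposomal doxorubicin act alike.

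The balance between isoenzymes was read as a log2 ratio of counts (0.5 added to each) within a library, which does not depend on the scaling of the library. HK2 to HK1 was -3.58 ± 0.49 (SD, n = 10) in DOX and MYO and -5.67 ± 1.07 (n = 3) in Hyper, a difference of 2.09 (exact permutation test, two-sided, p = 0.00699, adjusted p = 0.0833 over 14 tests). The ratio was -4.81 ± 0.69 in Control and -7.79 ± 0.33 in RemoLV. LDHA to LDHB was -4.61 ± 0.50 in DOX and MYO and -5.53 ± 0.17 in Hyper, a difference of 0.91 (exact permutation test, p = 0.014, adjusted p = 0.0833). It was -5.25 ± 0.12 in Control and -4.12 ± 0.27 in RemoLV, so that in RemoLV the ratio was above Control in 3 of 3 libraries although LDHA itself was not called. No ratio passed after adjustment. With 3 libraries against 3 the smallest p is 0.1, and with 5 against 3 it is 0.0179.

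**Figure D3:**
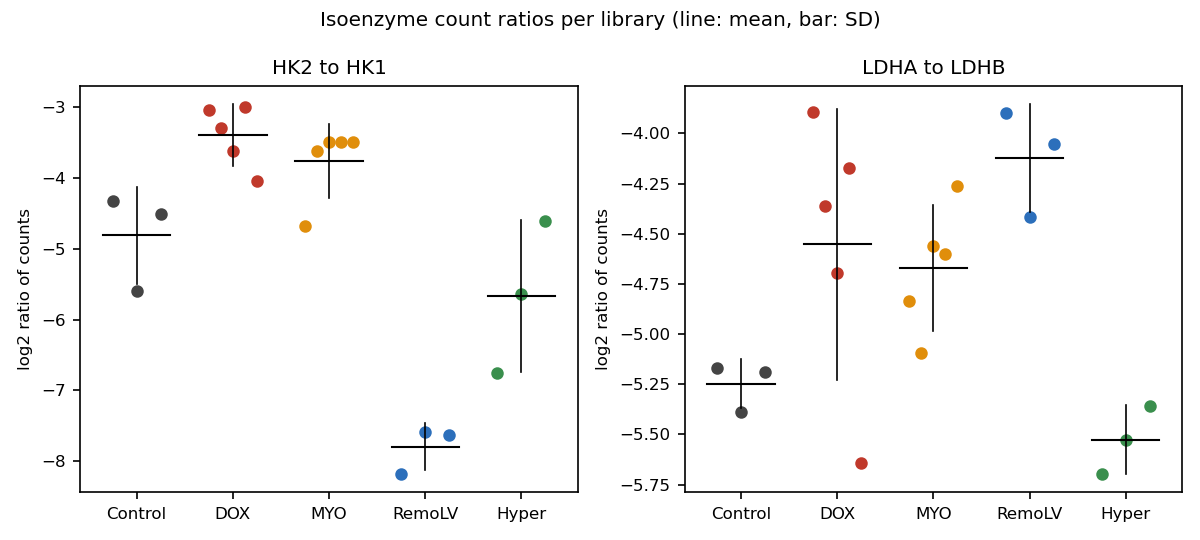
Log2 ratio of counts of HK2 to HK1 and of LDHA to LDHB (vertical axes) in each library by file label, with group means (lines) and SD (bars). HK2 to HK1 is lowest in the 3 RemoLV libraries, and LDHA to LDHB is above Control in all MYO and RemoLV libraries.

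LDHB-copy behaved differently from LDHB. It was at 173, 158 and 195 CPM in Control, 51.8, 57.3, 67.9, 49.6 and 65.2 CPM in DOX, and 48.6, 57.1, 35.2, 36.2 and 47.0 CPM in MYO, while Hyper was at 205, 64.7 and 162 CPM and RemoLV at 24.3, 79.4 and 27.7 CPM. As a share of the counts of both LDHB genes the libraries fell into separate sets, 13 between 1.98% and 2.57% and 6 between 6.61% and 7.51%, with none between. The higher set held Control 1, 2 and 3, Hyper 1 and 3 and RemoLV 2, and the lower set all 10 DOX and MYO libraries, Hyper 2, RemoLV 1 and RemoLV 3. The exact 95% binomial interval of RemoLV 2 was 6.28% to 6.95% and that of RemoLV 3 was 2.29% to 2.86% (counting error only), so libraries of 1 group lay in different sets. The call of LDHB-copy in DOX and MYO vs. Hyper (-1.49 ± 0.28, adjusted p = 0.000629) therefore compares 10 libraries of the lower set with 2 of the higher and 1 of the lower. Its calls in DOX vs. Control and MYO vs. Control compare libraries all of the lower set with libraries all of the higher. In RemoLV vs. Control, RemoLV 1 and 3 of the lower set and RemoLV 2 of the higher were compared with Control, all of the higher. Whether the sets follow pig, breeding source or batch was not tested.

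RefSeq places LDHB at chr5:51810932-51831218 (plus strand, 8 exons) and a second LDHB gene at chr2:12988754-12990033 (minus strand, 1 exon), and which Ensembl gene is which is not paired in the sources used here. The chromosome 2 transcript was 99.1% identical to 1 of the 2 chromosome 5 transcripts over 1280 aligned bases, with 11 mismatches and no gap, 8 of them in the 1005 coding bases. Its identity to the other was 95.6% over 1327 aligned bases, with 11 mismatches and 1 gap. Coding bases 445 to 544 of both are shown because they hold 2 of the mismatches, marked by capitals.
LDHB chromosome 5: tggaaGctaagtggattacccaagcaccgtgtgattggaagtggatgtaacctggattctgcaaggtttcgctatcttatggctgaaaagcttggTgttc
LDHB chromosome 2: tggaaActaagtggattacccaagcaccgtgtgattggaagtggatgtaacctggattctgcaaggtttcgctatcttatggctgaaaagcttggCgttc
Reads from this stretch that cover no mismatch fit both genes, so the counts of both LDHB genes are uncertain. Summing both genes in the LDHA to LDHB ratio, an alternative chosen after seeing the data, gave a difference of 0.96 between DOX and MYO and Hyper (adjusted p = 0.0734).

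**Figure D4:**
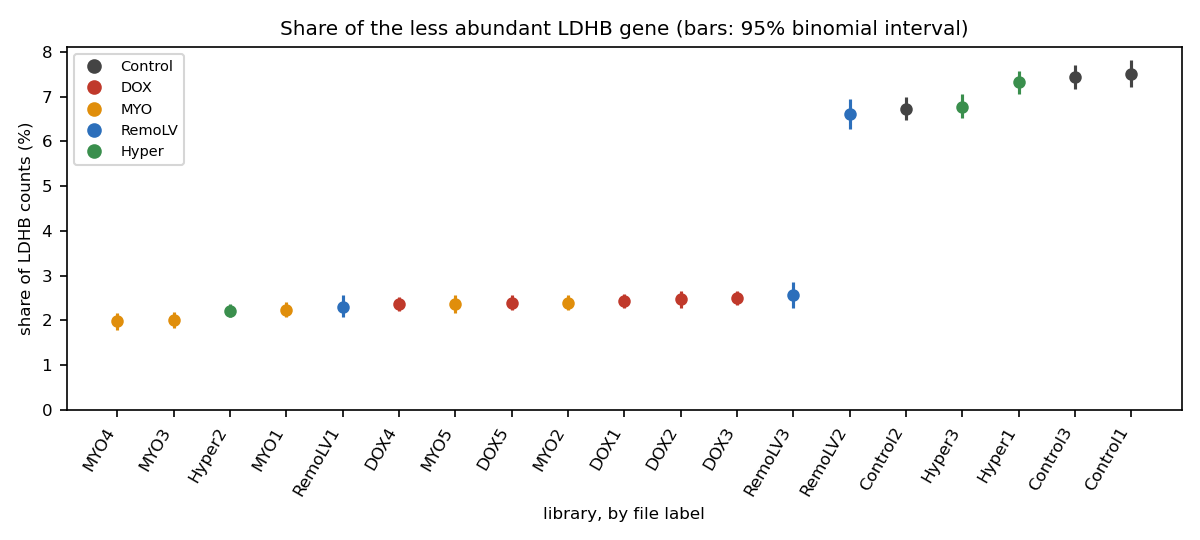
Share of LDHB-copy in the counts of both LDHB genes (vertical axis, percent) in the 19 libraries, ordered by share and coloured by file label, with 95% binomial intervals. The libraries lie either between 1.98% and 2.57% or between 6.61% and 7.51%.

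Other genes of the pathway gave mixed counts in DOX and MYO vs. Hyper. Of 14 other glycolytic enzymes tested (18 listed), 2 were higher, PGAM1 (0.57) and the liver-type phosphofructokinase PFKL (0.44), and 3 lower, the muscle isoforms PGAM2 (-0.65) and ENO3 (-0.53) and the isomerase GPI (-0.35), with a list median of 0.11. Of 7 other genes of lactate and pyruvate transport and use tested, the lactate exporter SLC16A3 (MCT4) was higher (2.20) and SLC16A7 (MCT2, -0.75) and the mitochondrial pyruvate carrier subunit MPC2 (-0.63) were lower. SLC16A3 ranged from 4.75 to 28.0 CPM in DOX, 4.51 to 12.7 CPM in MYO and 1.13 to 3.89 CPM in Hyper. Of 4 other regulators of fructose bisphosphate tested, PFKFB4 was higher (0.65) and PFKFB3 (0.68) did not pass. Of 6 other glucose transporters, SLC2A10 was higher (0.74) and SLC2A12 lower (-0.74).

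Of 14 genes of glycogen metabolism, 2 were higher, PPP1R3C (1.72), which targets a phosphatase to glycogen, and the brain-type phosphorylase PYGB (0.30), and 5 were lower, the phosphatase subunit PPP1R3A (-0.79), the muscle phosphorylase PYGM (-0.70), UGP2 (-0.60), the branching enzyme GBE1 (-0.49) and PGM1 (-0.38). PPP1R3C had means of 775 CPM in DOX, 612 CPM in MYO and 209 CPM in Hyper. Of 10 genes of the side branches, 0 were higher and 2 lower, GPD1 (-0.57) of the glycerol phosphate shuttle and AKR1B1 (-0.23) of the polyol pathway. The calls of these lists stand beside 15.8% of all genes called higher and 16.9% lower.

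In RemoLV vs. Control by file label, 14 other glycolytic enzymes had 2 higher and 4 lower, where 23.1% of all genes were called higher and 24.0% lower, with TPI1 at -1.34, ENO3 at -1.18, PGAM2 at -1.01 and PKM at -0.66 among those lower and PFKP at 0.63 among those higher. ALDOA (-0.21) and PGK1 (-0.21) did not pass. The glycogen list had 1 higher and 8 lower of 14, and the side branches 1 higher and 5 lower of 10. Of 7 other genes of lactate and pyruvate transport and use, 1 was higher and 3 lower, with SLC16A7 lower by 3.18 ± 0.23 on the log2 scale. Other lists leaned higher, with 2 higher and 1 lower of 4 other regulators of fructose bisphosphate (median 0.68). Of 6 other glucose transporters 1 was higher and 0 lower (median -0.01).

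Scaling bore on the comparisons with Control. TMM factors ranged from 0.696 to 0.965 in Control, 0.834 to 0.954 in Hyper and 0.972 to 1.18 in the other groups, and scaling to the total count alone moved the median log2 fold change of all genes to 0.45 in DOX vs. Control, 0.44 in MYO vs. Control, 0.52 in RemoLV vs. Control, 0.17 in Hyper vs. Control, 0.36 in RemoLV vs. Hyper and 0.28 in DOX and MYO vs. Hyper. In DOX vs. Control, 2842 genes higher and 2862 lower became 5622 and 705, in MYO vs. Control 2804 and 2944 became 5499 and 753, and in DOX and MYO vs. Hyper 2136 and 2286 became 3894 and 760. In RemoLV vs. Control 3136 and 3257 became 6178 and 1038, and in RemoLV vs. Hyper 2300 and 2518 became 4123 and 962. With that scaling, GAPDH and PFKM in DOX vs. Control were at -0.25 and -0.24, below the median of all genes and without a call, and HK1 was at 0 and SLC16A1 at 0.05. The lower values of these 4 genes are therefore values relative to the bulk of the transcriptome. HK2, PFKFB2 and LDHA remained called higher in DOX vs. Control and in DOX and MYO vs. Hyper with either scaling.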

How the data were processed

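Read pairs of poly(A)-selected, strand-specific libraries were aligned by the authors with STAR (build Sscrofa11.1), HTSeq 0.11.1 assigned them to Ensembl genes, and the raw counts were deposited as 1 file per library. HTSeq by default leaves out reads that align to several places, and how many reads of near-identical copies such as LDHB this concerned was not analysed here. The authors also deposited a table with log2-like transformed expression, used here only to compare sample names, and with fold changes and p-values of their own comparisons, which were not used.

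In R 4.3.3, counts were scaled with TMM, filtered with filterByExpr and fitted in 1 model of 5 groups without a block with the quasi-likelihood test of edgeR 4.0.16. P-values were adjusted with Benjamini-Hochberg over all 13552 genes tested, and an adjusted p of at most 0.05 was called. DESeq2 1.42.0 was an alternative, as were other scalings, no filter, only the groups compared, the table names, a replicate block, and leaving out the RemoLV libraries or each library. Of the fits, only the edgeR test of DOX vs. Control was tried on simulated data. Depth of 9527710 to 20370209 counts per library limits HK2 and PFKFB2 in RemoLV, at 14 to 78 counts. Log2 ratios of counts were compared with exact permutation tests, adjusted over 14 tests. Sequences were read from the RefSeq genome of the same build, and transcripts were aligned with blastn 2.17.0.

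Named genes were every member, the genes of pathway and marker lists, and for each member the gene nearest in pattern, which for PFKFB2 is not reported here. Members and lists were chosen with earlier results of these data known. Same-numbered DOX and Control libraries deviated together (r of 0.117 to 0.242 in 3 of 3 pairs), which held for no other pair of groups, and the labels give no shared litter or day. Each library is 1 pig according to the study, and pigs are the replicates.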

Additional observations from a re-analysis of the deposited data

Results flagged for a closer look

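Of 26 groups of 4 or 5 libraries in which the highest and the lowest library were compared with the rest, 3 held a library far from the others, and chance alone gives about 1 in 20. HK2 was at 15.8 CPM in MYO 1, whereas the other 4 MYO libraries lay between 28.6 and 33.6 CPM. The log2 ratio of HK2 to HK1 was -4.69 in the same library, against -3.62 to -3.49 in the others. This library is named DOX in the authors' table. LDHA was at 101 CPM in MYO 5, whereas the other MYO libraries lay between 67.8 and 74.3 CPM.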

How the results depend on the processing

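Over the members, counts, fold changes and ratios, DESeq2, RLE scaling, no filter on low counts, only the groups compared and leaving out the RemoLV libraries gave no reversed call, and SLC16A1 in Hyper vs. Control moved from 0.01 to -0.01 with DESeq2 and RLE scaling without a call. PFKM in DOX and MYO vs. Hyper was called with DESeq2 (-0.27) and with only the groups compared (-0.26).

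With library size alone, members called higher and lower were 5 and 1 in DOX vs. Control (41.5% and 5.2% of all genes) and 4 and 1 in MYO vs. Control (40.6% and 5.56%). In RemoLV vs. Control 1 was higher (LDHA, against 45.6% of all genes), and in DOX and MYO vs. Hyper 2 were lower (5.61%). Reversed were SLC16A1 in DOX (0.05) and MYO (0.04), HK1 (0.01) and LDHB (0.24) in MYO, HK1 (0.15) and LDHA (0.08) in Hyper vs. Control, and SLC2A4 (0.02) and LDHB (0.02) in DOX and MYO vs. Hyper, none called. HK1 was no longer called in RemoLV vs. Control (-0.21) and RemoLV vs. Hyper (-0.36), nor HK1 (-0.15) and SLC16A1 (-0.11) in DOX and MYO vs. Hyper. The cause was not tested.

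With table names, members called higher and lower were 7 and 0 in DOX, 7 and 0 in MYO, 9 and 0 in RemoLV and 9 and 0 in Hyper vs. Control, and 0 lower in RemoLV vs. Hyper. Reversed in DOX vs. Control were HK1 (0.28), PFKM (0.61), GAPDH (0.38), LDHB-copy (0.32) and SLC16A1 (0.85), and in MYO vs. Control HK1 (0.30), PFKM (0.54), GAPDH (0.49), LDHB (0.97), LDHB-copy (0.13) and SLC16A1 (0.74). In RemoLV vs. Control they were SLC2A4 (1.64), HK1 (0.71), HK2 (3.80), PFKM (1.22), PFKFB2 (2.55), GAPDH (1.11), LDHA (-0.06), LDHB (1.07), LDHB-copy (1.99) and SLC16A1 (1.16). In Hyper vs. Control they were HK1 (0.71), HK2 (3.06), PFKM (0.84), PFKFB2 (1.84) and LDHB-copy (1.71), in RemoLV vs. Hyper HK1 (0), HK2 (0.74), PFKM (0.38), PFKFB2 (0.71) and LDHB-copy (0.28), and in DOX vs. MYO PFKM (0.07). Of the ratios, HK2 to HK1 became 2.98 in RemoLV vs. Control, 2.12 in Hyper vs. Control and 0.86 in RemoLV vs. Hyper, and LDHA to LDHB -0.27 in DOX, -0.71 in MYO and -1.12 in RemoLV vs. Control. These follow from exchanging the libraries.

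With an added absolute log2 fold change of at least 2, 0 members were called in DOX vs. Control, 0 in MYO vs. Control, 0 higher and 0 lower in DOX and MYO vs. Hyper, and 2 lower in RemoLV vs. Control and in RemoLV vs. Hyper.

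With each library left out, members called higher ranged from 1 to 3 in DOX, 0 to 1 in MYO and 0 to 1 in Hyper vs. Control, and those called lower from 3 to 5, 3 to 5 and 0 to 2, with 9 lower in RemoLV vs. Control and RemoLV vs. Hyper each time. In DOX and MYO vs. Hyper, 2 to 3 were higher and 4 to 5 lower. Signs turned, without a call, for LDHA in RemoLV vs. Control (-0.04 to 0.16), for HK1 (-0.05 to 0.06), LDHB-copy (-0.63 to 0.07) and SLC16A1 (-0.11 to 0.08) in Hyper vs. Control, for HK1 (-0.06 to 0.06), GAPDH (-0.07 to 0.02) and SLC16A1 (-0.04 to 0.06) in DOX vs. MYO, and for the LDHA to LDHB ratio in DOX vs. MYO (-0.05 to 0.39).

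Of 32 same-numbered pairs 4 correlated over 0.1 (range -0.246 to 0.242), among them all 3 of DOX and Control, and 4 of 19 libraries correlated best with their own number. The replicate block gave 2 members higher and 5 lower in DOX vs. Control, where HK2 was at 0.87 and not called, and SLC16A1 at 0 in Hyper vs. Control, and changed no other call. In DOX vs. Control the share of all genes called fell with it from 21.0% to 17.5% higher and from 21.1% to 17.9% lower. The ratio of SLC2A1 to SLC2A4 was not run because SLC2A1 matched no gene.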

Other observations

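For each member but PFKFB2, the gene with the most similar pattern over the 19 libraries was found among 12371 other genes with a symbol, as the smallest root mean square distance between centred log2 CPM values. GAPDH was nearest to NDUFB2, a subunit of respiratory complex I (distance 0.146), PFKM to the mitochondrial chaperone HSPA9 (0.131), and HK1 to GOT1, the cytosolic enzyme of the malate-aspartate shuttle (0.133). SLC16A1 was nearest to RRAGD (0.173), LDHB to DBT, a subunit of branched-chain keto acid dehydrogenase (0.188), SLC2A4 to MCRIP2 (0.207) and LDHA to NEDD9 (0.227). The distances were larger for HK2, nearest to TNFRSF12A (0.759), and for LDHB-copy, nearest to PARD3B (0.437). These are descriptions over libraries that share group and scaling.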
